A study of Mus musculus with 18 samples.

Results

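The autosomal genes for the proteins of the cytosolic ribosome were examined in sorted mouse bone marrow B cells. Members were the autosomal rows whose symbol starts with Rpl or Rps and a digit, without pseudogene names, ribosomal S6 kinases, Rps19bp1, Rpl7l1 and Rpl22l1. They numbered 75 of 25965 rows, 44 named for the large subunit and 31 for the small subunit, on 18 of the autosomes. Of these, 73 passed the filter on low counts. Rpl10l was at 0 counts in all 18 libraries, and Rpl39l reached 0.228 CPM (counts scaled to library size) on average, with its highest value, 2.09 CPM, in female heterozygous library 1.

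There were 4 groups of C57BL/6 mice aged 12 to 16 months. Heterozygous animals (Smchd1[del/+] Vav.Cre[T/+]) had 1 deleted Smchd1 allele and del/del animals (Smchd1[del/del] Vav.Cre[T/+]) had 2, with 5 female libraries of each genotype and 4 male libraries of each genotype. Vav-Cre, a recombinase expressed throughout the blood lineage, was carried by all 4 groups, so none is wild type. Smchd1 encodes a chromatin protein that silences genes, among them genes of the inactive X chromosome. Femur marrow cells that were CD45.2+, B220+ and Mac1- were sorted, and polyA RNA was sequenced.

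Each ribosome is built from 1 copy of nearly every ribosomal protein, so cells make these proteins in matched amounts. Their mRNAs are among the most abundant in a dividing or protein-secreting cell. Many of them start with a C followed by a run of pyrimidines, the 5′ terminal oligopyrimidine tract, through which mTOR signalling and the protein LARP1 adjust their translation. Ribosomal protein genes have also left many processed pseudogenes in the mouse genome, whose near-identical sequence can take or lose reads.

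The promoter sequences of part of the members show a pyrimidine run near the start. RefSeq start sites (build GRCm38.p6, 250 bases before to 50 bases after the start) matched 54 of the 75 members by symbol. The windows below run from 20 bases before the start and end 20 bases later, read on the strand of the gene, and capitals mark a run of at least 5 pyrimidines read from a C within 5 bases of the start (pyrimidines before that C stay in lower case). All but Rpl4, Rps15 and Rps28 hold such a run, and they are shown because the results below turn on most of these genes or on their level. Rps15a and Rpl13a are not taken up again. The windows shown hold the run more often than the 54 members do, of which 48.1% have it.
Rpl18, chr7:45718051-45718090, plus strand: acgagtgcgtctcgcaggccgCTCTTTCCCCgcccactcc
Rpl34, chr3:130730379-130730418, minus strand: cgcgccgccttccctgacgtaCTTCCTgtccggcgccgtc
Rpl7a, chr2:26910787-26910826, plus strand: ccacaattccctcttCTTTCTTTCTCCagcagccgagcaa
Rps6, chr4:86857348-86857387, minus strand: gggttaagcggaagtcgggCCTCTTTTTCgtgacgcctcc
Rpl27a, chr7:109519175-109519214, plus strand: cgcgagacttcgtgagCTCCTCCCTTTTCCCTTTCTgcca
Rps15a, chr7:118116128-118116167, minus strand: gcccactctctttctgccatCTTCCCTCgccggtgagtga
Rpl13a, chr7:45128726-45128765, minus strand: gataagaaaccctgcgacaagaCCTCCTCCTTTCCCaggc
Rpl4, chr9:64173367-64173406, plus strand: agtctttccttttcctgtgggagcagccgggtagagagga
Rps15, chr10:80292411-80292450, plus strand: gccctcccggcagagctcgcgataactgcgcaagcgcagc
Rps28, chr17:33824543-33824582, minus strand: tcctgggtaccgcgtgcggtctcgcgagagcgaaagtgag

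A run that has a C at the annotated start base, with at least 5 pyrimidines counted from it and any number before it, was found in 22.2% of the 54 members, against 3.01% of 27025 genes of the same table. Within 5 bases of the start it was found in 48.1% of members and 21.2% of all genes. Searched on both strands over the whole window, CCGGAAG, a core recognised by ETS family factors, was in 40.7% of members and 9.93% of all genes. AAGATGGC, the core of the YY1 motif, was in 9.26% and 3.19%, and GGGCGG, the GC box, in 57.4% and 38.2%. TATAAA was in 5.56% of members and 15.7% of all genes, and CACGTG, the E-box that MYC binds, in 11.1% and 8.09%. These matches describe letters in a window and no factor was measured. The 26 members with a run within 5 bases and the 26 without one that passed the filter had median male log2 fold changes between genotypes of 0.17 and 0.16, median female ones of -0.02 and -0.02, and median levels of 19.8 and 20.7 RPKM; these medians were not tested.

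Total counts were 9788112 to 29405395 per library. Smchd1 itself was at 231 to 270 CPM in female heterozygous and 127.7 to 171.2 CPM in female del/del libraries, and at 277 to 328 and 163 to 199 CPM in male ones, with no overlap in either sex. As for the labelled cell type, the B cell receptor genes Cd79a and Cd79b were at 1032 to 1596 CPM and 1564 to 1943 CPM in the 18 libraries, while Itgam, which encodes the Mac1 alpha chain, was at 34.9 to 111 CPM and Cd3e, of T cells, at 0.942 to 7.52 CPM. In RNA from a sorted population, fewer cells of a type and less RNA per cell cannot be told apart.

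The members together took 1.07% to 1.62% of the counts of a library. The share was 1.07%, 1.36%, 1.19%, 1.59% and 1.31% in the 5 female heterozygous libraries and 1.12%, 1.36%, 1.25%, 1.31% and 1.32% in the 5 female del/del libraries. Among males it was 1.18%, 1.47%, 1.30% and 1.49% for heterozygotes and 1.41%, 1.41%, 1.44% and 1.62% for del/del animals. The genotypes overlapped in both sexes: the group means were 1.31% ± 0.195 (SD, n = 5) and 1.27% ± 0.095 (SD, n = 5) in females and 1.36% ± 0.148 (SD, n = 4) and 1.47% ± 0.0995 (SD, n = 4) in males. Counting error was small beside this spread, with a 95% exact binomial interval of 1.17% to 1.18% for male heterozygous library 1, the shallowest one. This interval covers counting error only.

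**Figure D1:**
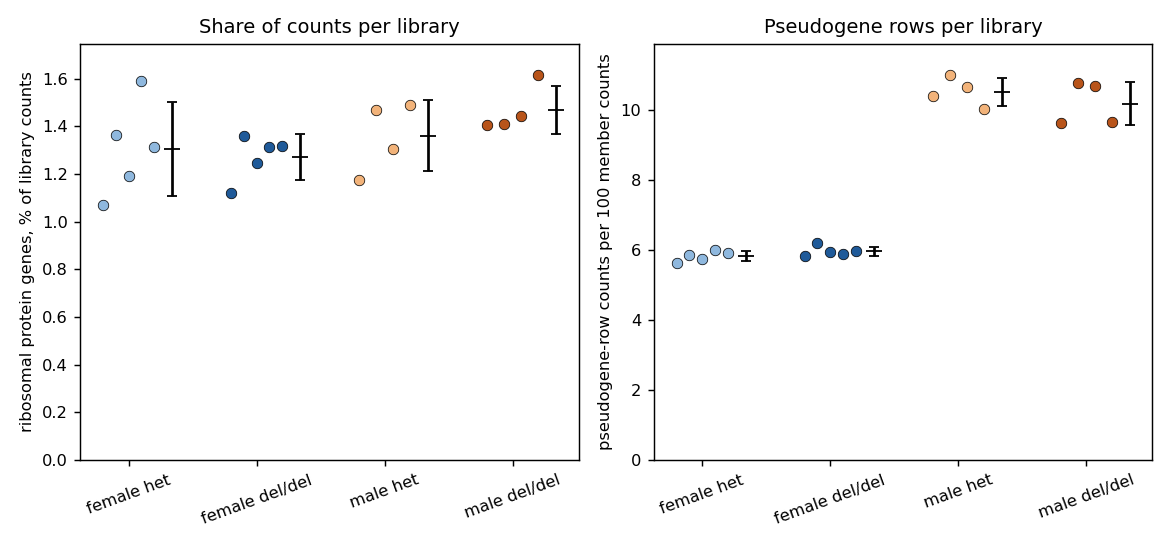
Left, share of each library's counts (%) in the 75 members; right, counts in rows named as ribosomal protein pseudogenes per 100 member counts. Points are libraries, and bars are group mean ± SD; the shares overlap between genotypes within each sex, whereas the pseudogene ratio lies between 5.61 and 6.18 in females and between 9.64 and 11 in males.

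Levels per length differed widely among genes whose proteins are needed in equal number. As RPKM, CPM per kilobase of merged exons, the highest members were Rpl8 at 866, Rpl4 at 830 and Rps15 at 761. The lowest of the 73 were Rps13 at 1.27, Rps12 and Rps27 both at 2.88, Rpl3l at 2.97 and Rpl23a at 3.29. Rpl3l is a paralogue of Rpl3 known from striated muscle. The others encode core small and large subunit proteins. The median member was at 33.3 RPKM, and 58 of 73 members lay above the median of all tested genes, 6.93 RPKM. There were 16 members over 100 RPKM and 22 under 10 RPKM. With the length of the principal transcript in place of merged exons, the median was 77.3, so the scale of these levels depends on the gene model.

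**Figure D2:**
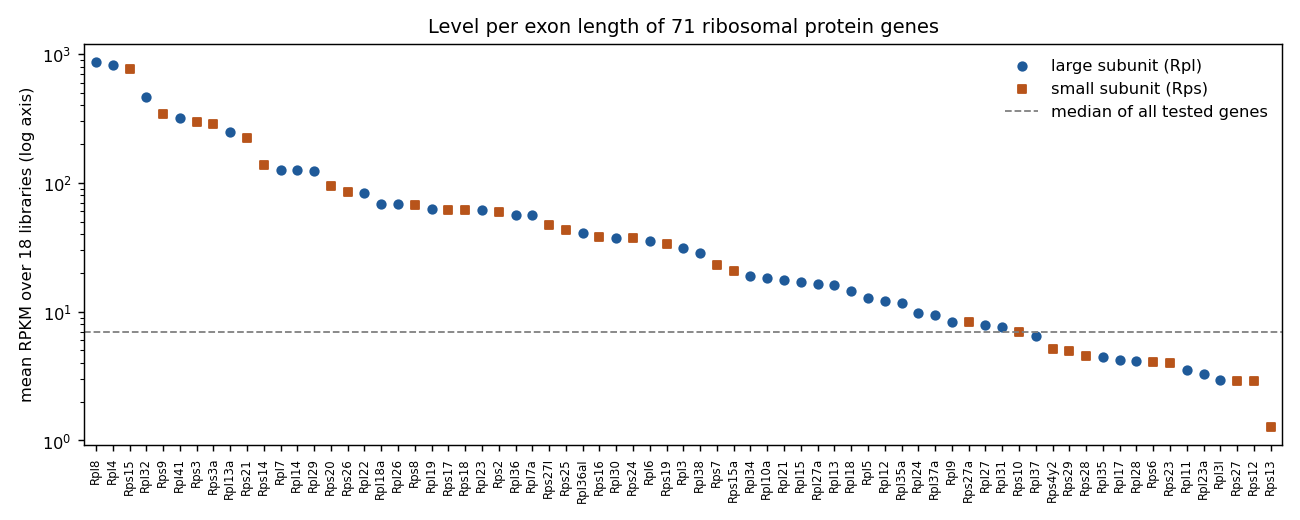
Mean RPKM over 18 libraries (log axis) of 71 members that passed the filter, in descending order, with large subunit genes as circles and small subunit genes as squares. The members run from 866 (Rpl8) to 1.27 (Rps13), and the dashed line is the median of all tested genes at 6.93.

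Part of this range moved with how much of a transcript is found in no other gene. Of the 75 members, 64 shared at least one 100-base stretch of their principal transcript with an annotated pseudogene (GENCODE M21). Among the lowest, Rps27 had 1.63% of its 100-base stretches to itself, Rps12 18.4%, Rpl23a 19.96% and Rps13 22.4%, but Rpl3l had 100%. At the other end Rpl8 had 98.3% and Rpl4 94.9%. With the longest protein-coding transcript in place of the principal one, Rps27 was at 42.1% and Rps13 at 71.3%, so these 2 examples depend on the transcript chosen. Across 73 members, Spearman's rho between this share and RPKM was 0.47 for 100-base and 0.34 for 50-base stretches. These values rest on choices made after a first version had been seen: with the longest protein-coding transcript rho was 0.43 and 0.29 over 72 members, and with the 2 members that did not pass the filter included it was 0.37 and 0.25 for the principal transcript and 0.33 and 0.20 for the longest. Members are not independent points here, since they share libraries and gene models, and the relation is weak. The treatment of reads with several matches is not given in the sources used here, and its part in these levels was not tested.

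Another source of uncertainty is overlap. Exons of another annotated gene, on either strand, lay over those of 35 of the 75 members (some are named as small nucleolar RNAs), and strand use in counting is not given in the sources used here.

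The members rose and fell together from library to library. After subtracting group means, 41 of 73 members correlated above 0.7 with the mean of the other members over the 18 libraries, and the median was 0.72. Among the 39 members over 50 CPM, 33 did so. These correlations are descriptions: the libraries share 1 depth scaling and the members' common shift enters each of them. The same correlation was not computed for all genes or for other lists, so moving together is not shown to be particular to the members. Female heterozygous library 4 stood highest, with a mean member deviation of 0.297 on the log2 scale, and female heterozygous library 1 stood lowest at -0.244. Both are controls. Malat1, a nuclear RNA, was at 9.60 log2 CPM in library 4 and 10.57 in library 1, the ends of the range in that group. The mean level of erythroid genes had the same libraries at its ends, 4.24 log2 CPM in library 4 and 2.80 in library 1. The part of any of these levels in the deviations was not tested. Among males, heterozygous library 1, the shallowest, stood lowest at -0.149.

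Rpl24, a large subunit protein, did not follow the others. Its values were 69.3, 62.7, 73.7, 60.5 and 64.6 CPM in female heterozygous libraries and 83.3, 62.8, 71.6, 61.9 and 63.2 CPM in female del/del libraries. Its correlation with the mean of the other members was -0.48, and library 4 of the heterozygous females, where most members were highest, held its lowest value in that group. Exons of other annotated genes, summed gene by gene, lay over 11.48% of the merged exons of Rpl24 (7440 bases), and their part was not tested. With Rpl24, 10 members correlated below 0.2, of which 5 averaged under 10 CPM and Rpl12, Rpl10a, Rpl9 and Rps27a were at 43.9, 44.4, 25.8 and 16.3 CPM. The within-group SD of a member was 0.211 on the log2 scale at the median and 0.148 after subtraction of the members' mean in each library. In the 3 bins of level above 4 log2 CPM, and in the one below, from 2 to 4, the median SD of members was larger than that of all tested genes (below 2 it was smaller), for example 0.20 against 0.14 between 6 and 8 log2 CPM.

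**Figure D3:**
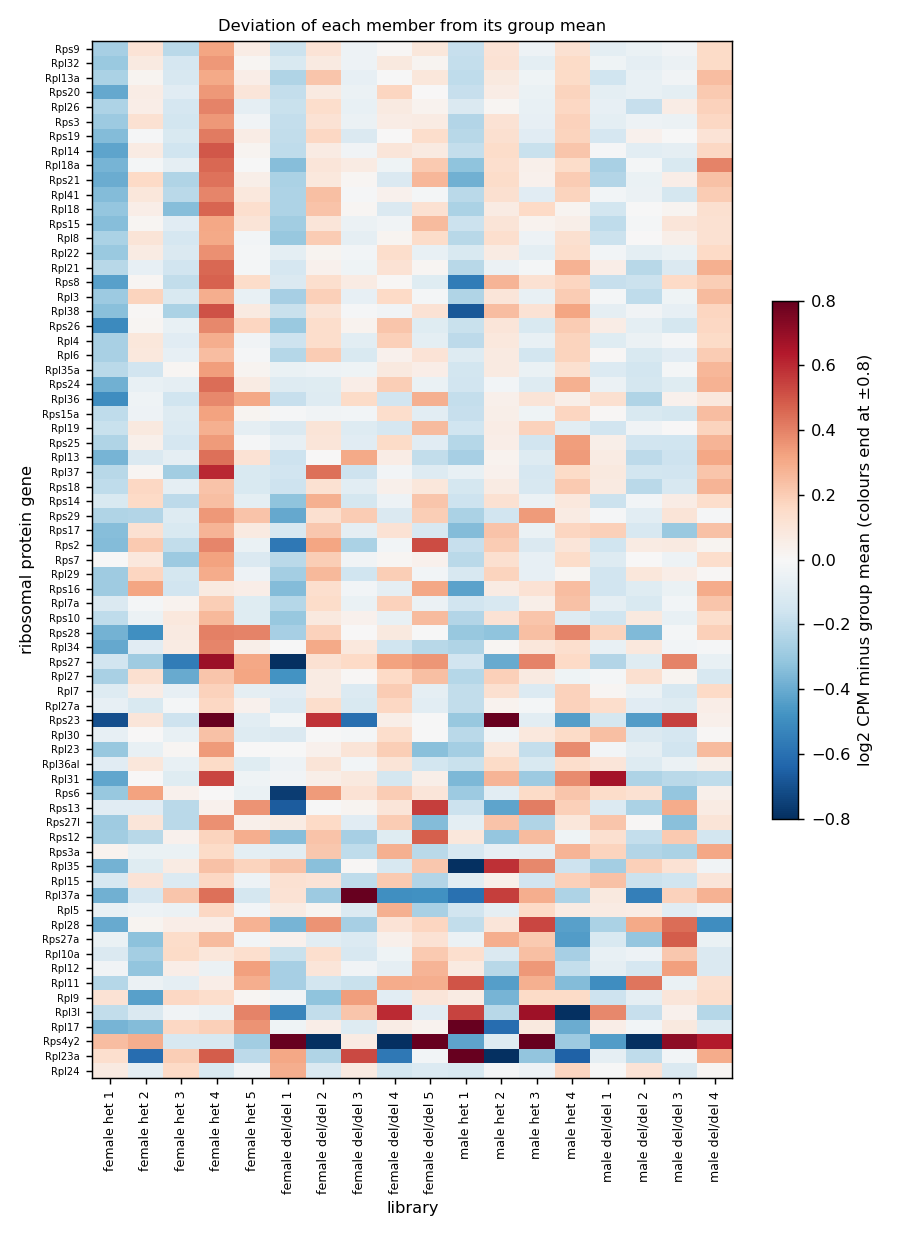
Log2 CPM of each of 71 members minus its group mean (colour, ending at ±0.8) in each of 18 libraries, with members ordered by their correlation with the mean of the others. The columns of female heterozygous library 4 (mean deviation 0.297) and library 1 (-0.244) are coloured alike down most of the upper rows, and Rpl24 at the bottom goes the other way.

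The comparison of del/del with heterozygous libraries asked whether loss of Smchd1 changed these genes. In females no member passed an adjusted p under 0.05 in edgeR's quasi-likelihood test, against 0.252% of 13501 genes. DESeq2 and voom also called 0 members. Log2 fold changes were above 0 for 27 of 73 members, with a median of -0.02 beside 0.00 for all genes tested. At an unadjusted p under 0.05, 1 member was higher (Rps4y2) and none lower, against 3.12% of all genes higher. The sign count depended on single controls: 15 members were above 0 without female heterozygous library 1 and 62 without library 4, and the median moved to -0.08 and 0.07. With all libraries kept it also moved with a covariate: 66 members were above 0 with the Malat1 level, 66 with the erythroid level, 57 with the proliferation level and 41 with the plasmacytoid dendritic cell level. The genes of the erythroid list were lower in female del/del libraries at an unadjusted p under 0.05 for 9 of 13, none passing adjustment. Their mean level was 2.80 to 4.24 log2 CPM in heterozygous and 2.52 to 3.35 in del/del libraries, and with that level as a covariate the members' median was 0.16.

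In males again no member passed, against 0.119% of 13413 genes, and DESeq2 and voom called 0. Here 68 of 73 members had a log2 fold change above 0, with a median of 0.16 beside 0.00 for all genes tested. At an unadjusted p under 0.05, 7 members were higher and 0 lower, 9.59% of members, against 2.32% of all genes higher. Since members shift together with a library, 68 members are not 68 observations of the 4 animals against 4. Leaving out each library in turn left 63 to 71 members above 0 and a median of 0.09 to 0.20, the lowest medians being 0.09 without male heterozygous library 1 (0.095) and without male del/del library 4 (0.087), the libraries with the lowest and highest members.

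Several lists of cell type markers leaned to 1 side between genotypes in the same male libraries. Of 15 plasmacytoid dendritic cell genes, 13 were above 0 in males, 7 of them at an unadjusted p under 0.05, and their mean level was 5.51 to 5.73 log2 CPM in heterozygous and 5.501 to 6.15 in del/del libraries. All 14 pro-B and pre-B cell genes were below 0, 7 at an unadjusted p under 0.05, with levels of 7.08 to 7.43 and 6.70 to 7.20 log2 CPM. All 14 myeloid genes were above 0 and 12 of 13 erythroid genes below 0 (medians 0.24 and -0.66), and 3 of 11 T and NK cell genes were lower at an unadjusted p under 0.05. None of these genes was called in males, and 0 myeloid genes had an unadjusted p under 0.05. Among all 13413 genes tested in males, 2.32% were higher and 137 genes lower at that limit. With the plasmacytoid dendritic cell level as a covariate, chosen after the values were seen, the members' median was 0.26 and 69 were above 0. With the erythroid level it was 0.19, with the Malat1 level 0.17 and with the proliferation level 0.135. The levels of the remaining lists were not used as covariates here, and their part in the male shift was not tested.

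The 7 were Rpl19, Rpl18, Rpl34, Rpl30, Rpl36, Rpl5 and Rps28, of which 6 encode large subunit proteins. Of the tested members, 42 were named for the large and 31 for the small subunit. Both leaned alike in males, with 39 and 29 above 0 and medians of 0.17 and 0.135. Rpl34 was at 20.2, 24.2, 25.4 and 26.3 CPM in male heterozygous libraries and at 27.0, 29.9, 27.8 and 28.0 CPM in male del/del libraries. It was the 1 member of 73 whose male genotypes did not overlap, against 2% of all tested genes. Its log2 fold change was 0.24 (SE 0.09, edgeR adjusted p = 1). Rpl19 was at 41.8, 48.7, 53.2 and 44.1 CPM in male heterozygous and 51.5, 56.2, 57.5 and 64.8 CPM in male del/del libraries, overlapping between 51.5 and 53.2, and had the smallest p (log2 fold change 0.30, SE 0.10, edgeR adjusted p = 1). Rpl18 was at 62.6, 78.0, 83.4 and 75.7 CPM in heterozygous and 82.3, 91.0, 92.5 and 99.4 CPM in del/del males, with 1 heterozygous library above the lowest del/del one. Rpl5, which with Rpl11 binds MDM2 and so links ribosome assembly to p53, had a log2 fold change of 0.18 (SE 0.08) in males. Rpl11 was at 0.20 (SE 0.25). The 5 male log2 fold changes under 0 belonged to Rpl23a, Rpl17, Rps23, Rps27l and Rpl36al, and none of these had an unadjusted p under 0.05. Between female genotypes no member was without overlap, against 1.13% of all tested genes.

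**Figure D4:**
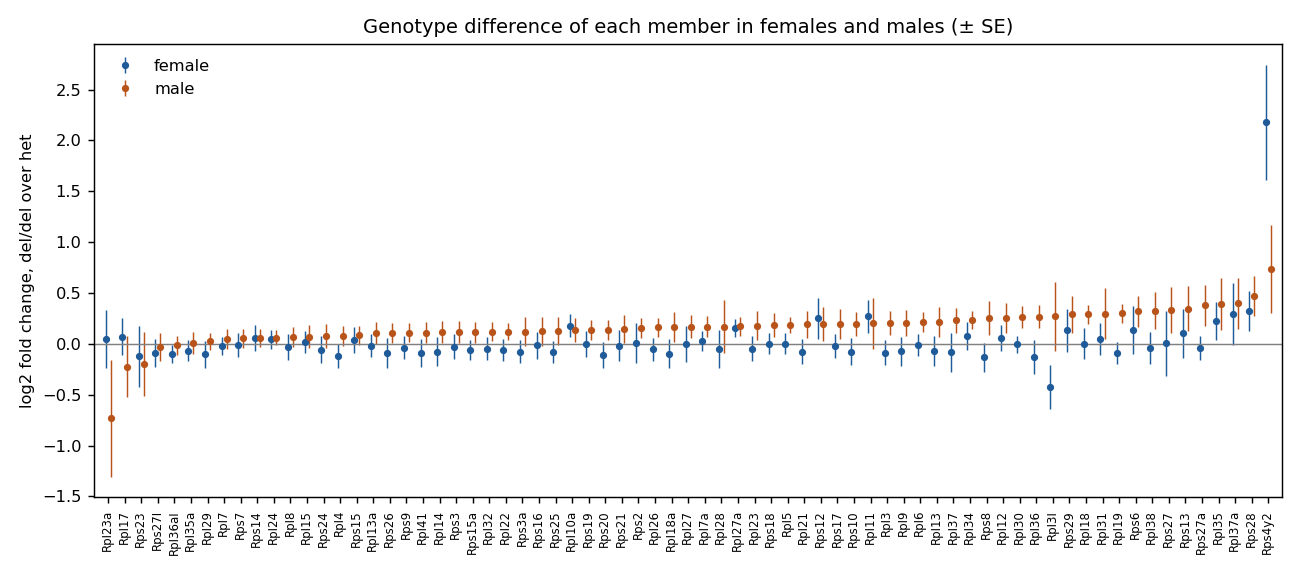
Log2 fold change of del/del over heterozygous libraries (± SE) for each of 71 members, ordered by the male value, with females (5 against 5) in blue and males (4 against 4) in orange. Most male values sit a little above 0 (median 0.16) and most female values near it (median -0.02); Rps4y2 at the right is the exception at 2.18 in females.

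Over both sexes no member passed, against 0.514% of 14017 genes, and DESeq2 and voom called 0. There were 63 of 73 members above 0 with a median of 0.06, and 3 were higher at an unadjusted p under 0.05, against 3.92% of all genes higher: Rps4y2, Rps28 (log2 fold change 0.39, SE 0.14) and Rpl27a (0.16, SE 0.07), with edgeR adjusted p of 0.216, 0.598 and 0.693. The difference between the sexes in the genotype effect was tested as an interaction. It was called for 0% of genes and for 0 members by edgeR, DESeq2 and voom, although 65 of 73 members had a lower log2 fold change in females, with a median difference of -0.15. One member, Rpl19, was lower at an unadjusted p under 0.05 (-0.37, SE 0.15, edgeR adjusted p = 1), against 0.378% of all genes. The interaction did not show that the sexes differ for any member. For each sex the authors' deposited table listed 73 members, and none had an adjusted p under 0.05, the smallest being 0.329 in females and 1 in males.

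Rps4y2 stood apart. It lies at chr6:148354656-148355598 in the coordinates of the deposited table, and GENCODE M21 annotates it as a transcribed processed pseudogene, so it met the naming rule without being an intact ribosomal protein gene by that annotation. Its counts in female heterozygous libraries were 85, 36, 67, 41 and 48, and 352, 89, 209, 41 and 533 in female del/del ones. Del/del libraries 1, 3 and 5 were far above every control, while libraries 2 and 4 were at or near control level (18.2, 3.72, 8.04, 1.87 and 25.4 CPM in the 5). The log2 fold change was 2.18 (SE 0.57, edgeR adjusted p = 0.308), and it passed at an adjusted p of 0.0461 only without del/del library 4. In males it was 0.74 (SE 0.43, edgeR adjusted p = 1). The 3 high libraries also had the highest level of plasmacytoid dendritic cell genes among female del/del libraries, 6.97, 7.07 and 7.23 log2 CPM, against 6.27 and 6.00 in the other two and 6.00 to 6.79 in heterozygous ones. They likewise had the highest mature B cell levels of that group (8.65, 8.69 and 9.14 log2 CPM against 7.98 and 8.25) and the highest Malat1 (10.48, 10.89 and 10.87 against 9.87 and 10.27). Their proliferation levels were the lowest of that group (7.07, 7.27 and 6.87 log2 CPM against 7.76 and 7.73). So were their pro-B and pre-B cell levels (7.61, 7.33 and 7.20 against 7.65 and 7.90). All 15 plasmacytoid dendritic cell genes were above 0 in females and 0 were called. Over both sexes 1 of the 15 was called (edgeR adjusted p = 0.00186). With the plasmacytoid dendritic cell level as a covariate, an alternative chosen after the values were seen, the female log2 fold change of Rps4y2 was 0.97 (SE 0.37, edgeR adjusted p = 0.999). With the proliferation level as a covariate it was 0.83 (SE 0.30, edgeR adjusted p = 1), and with Malat1 1.40 (SE 0.65, edgeR adjusted p = 1).

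Other genes of the translation machinery were not called between genotypes either. The 11 ribosomal protein genes outside the rule (such as the X-linked Rpl10, Rpl36a, Rpl39 and Rps4x, and the stalk protein gene Rplp0) were above 0 for 10 of 11 in males, median 0.11, and 6 of 11 in females, median 0.01, with no call in either. Of these, Rps4x was at 0.29 in females (edgeR adjusted p = 0.975). Of 38 ribosome biogenesis genes, 25 were above 0 in males and 3 in females, with medians of 0.02 and -0.09. Of 31 translation factors, 20 were above 0 in males and 3 in females, with medians of 0.04 and -0.06. Of 77 mitochondrial ribosomal protein genes, whose products serve another ribosome, 29 were above 0 in males and 13 in females, with medians of -0.02 and -0.07. The male medians of these 3 lists were nearer to 0 than that of the members (0.16), a difference that was not tested. Of 21 regulators of ribosomal protein synthesis, 0 were called in either sex. All 20 proliferation genes were below 0 in both sexes, with medians of -0.22 in females and -0.12 in males, and 0 were called. Their part in the members' values was not tested beyond the covariate fits.

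The members known from disease or development (such as Rps19, the gene most often mutated in the inherited Diamond-Blackfan anaemia, and Rps14, lost in the acquired 5q- syndrome) were not called either. All 14 were above 0 in males, median 0.15, and 5 of 14 in females, median -0.03. Of the 5 paralogue rows, Rpl36al, Rps27l and Rpl3l passed the filter, and their male log2 fold changes were -0.01, -0.03 and 0.27.

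Female and male heterozygous libraries differed far more than the genotypes. Of 73 members, 33 passed an adjusted p under 0.05, 45.2%, against 22.7% of 14017 genes; 16 were higher in females (10.8% of all genes were) and 17 lower (11.9% of all genes were). The sexes were deposited as separate tables, so sex and any step done by table cannot be told apart. The members did not shift as a unit here: the median was -0.11, between extremes of -1.50 and 1.48.

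Rpl7a was at 122, 130, 134, 151 and 123 CPM in female heterozygous and 115, 149, 130, 153 and 130 CPM in female del/del libraries, and at 47.9, 48.9, 55.2 and 62.7 CPM in male heterozygous and 56.7, 54.8, 58.8 and 69.6 CPM in male del/del libraries. Every female library was above every male one, and the log2 fold change among heterozygotes was 1.30 (SE 0.11, edgeR adjusted p = 7.12e-08). Rpl34 was at 49.6, 61.8, 69.1, 86.4 and 68.0 CPM in female and, as above, no more than 26.3 CPM in male heterozygotes (log2 fold change 1.48, SE 0.14, edgeR adjusted p = 5.55e-07). Rpl29, a surface protein of the large subunit, went the other way, at 68.9, 94.7, 76.2, 104 and 81.8 CPM in female and 191, 237, 200.3 and 211.7 CPM in male heterozygotes (-1.31, SE 0.12, edgeR adjusted p = 4.53e-07). Rps6, whose protein is phosphorylated by the S6 kinases, was at 2.61, 4.08, 3.33, 3.25 and 3.12 CPM in female and 7.40, 8.56, 10.1 and 10.6 CPM in male heterozygotes (-1.50, SE 0.20, edgeR adjusted p = 5.21e-05). All 4 genes separated the sexes without overlap. Of the 100-base stretches of their principal transcripts, 26.5% (Rpl7a), 77.5% (Rpl34), 49.05% (Rpl29) and 16.4% (Rps6) were found in no other gene. The part of shared sequence in these differences was not tested.

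Among the other members called, Rpl3l at 1.20, Rpl30 at 0.97, Rpl36 at 0.82, Rpl21 at 0.76, Rps26 at 0.72, Rpl6 at 0.71 and Rpl19 at 0.68 were higher in females. Rpl37a at -0.98, Rpl18 at -0.93, Rpl13 at -0.85, Rps27 at -0.82 and Rps14 at -0.78 were lower. Of the 14 disease or development genes, Rps26, Rpl22 and Rpl26 were higher and Rps6, Rps14, Rps19, Rps10 and Rps7 lower. The heterozygous sexes did not overlap for 20 members, 27.4%, against 23.7% of all tested genes. Of these, 11 were higher and 9 lower in females. The del/del sexes did not overlap for 32, 43.8%, against 16.2%. Here 8 were higher and 24 lower in females, against 1081 and 1188 of all tested genes.

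**Figure D5:**
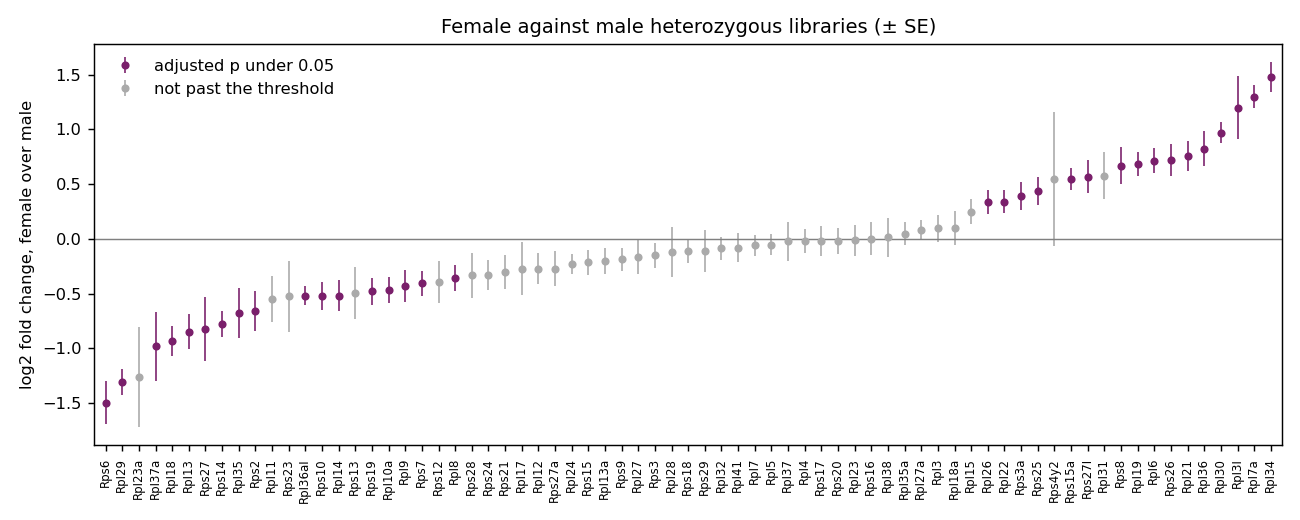
Log2 fold change of female over male heterozygous libraries (5 against 4, ± SE) for 71 members in ascending order, with the 33 past an adjusted p under 0.05 in purple. They lie at both ends, from -1.50 (Rps6) to 1.48 (Rpl34), and most of the others lie closer to 0.

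Several other measures moved with the tables. Rows named as ribosomal protein pseudogenes held 5.61 to 6.18 counts per 100 member counts in the 10 female libraries and 9.64 to 11 in the 8 male libraries, and 16 of the 21 tested pseudogene rows were called, 14 of them lower in females. With this ratio as a covariate, chosen after the values were seen, 0 members were called, but the ratio separates the sexes completely, so that fit has little left to estimate: the SE of Rpl29 rose from 0.12 to 0.63. Marker lists of cell types differed between the tables as well. Mature B cell genes were lower in females for 12 of 13 genes called (level 8.19 to 8.70 log2 CPM in female and 9.31 to 9.52 in male heterozygotes), and all 20 proliferation genes were called higher (7.35 to 7.71 against 6.73 to 7.14). With the mature B cell level as a covariate, also chosen after the values were seen, 11 members were called, and with the proliferation level 15. Both levels also separate the heterozygous sexes without overlap, so these fits too have less left to estimate: the SE of Rpl29 was 0.19 and 0.14. Genes called higher in females numbered 10 of 15 for plasmacytoid dendritic cells, 5 of 7 for plasma cells and 6 of 14 for pro-B and pre-B cells, with none lower, and their part in the members' differences was not tested. Of 77 mitochondrial ribosomal protein genes, 11 (14.3%) were called higher and 0 lower. Over all genes tested, 10.8% were called higher and 11.9% lower, so this list was called less often than all genes (22.7%).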

How the data were processed

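RNA was sequenced from 18 libraries, which the labels give separate animal numbers. For each sex the authors deposited a table of raw read counts and, per the file headers, log2 fold changes with p-values. The tools named per the submitters' processing notes are TopHat, Trim Galore, FastQC, bcl2fastq and edgeR 3.32.1, and the builds mm10 and GRCm38; the counting program, annotation and strand are not given in the sources used here. GENCODE M21 held the identifiers of 24990 of 25965 rows. Mitochondrial genes had 13 rows, all at 0 counts, and 4 group mean columns were not used. Per the labels' protocols, TruSeq libraries were made.

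Counts as deposited were tested in R 4.3.3 with edgeR 4.0.16: filterByExpr (minimum count 10, minimum total 15), TMM, quasi-likelihood test, Benjamini-Hochberg adjustment over all genes tested, called at an adjusted p under 0.05. Each sex was fitted alone; the both-sex, interaction and sex contrasts came from 1 fit of 4 group means. Positive means higher in del/del, or in females. The SE is the log2 fold change over the square root of F. CPM use TMM factors over 18 libraries, and log2 CPM a prior count of 2. The fits were also run on simulated counts drawn independently for each gene, which does not test small shifts shared by many genes. Alternatives were RLE scaling, scaling without ribosomal rows, no filter, DESeq2 1.42.0, voom (limma 3.58.1), covariates, blocks, leaving out libraries, and 4 kinds chosen after seeing the data (plasmacytoid dendritic cell, mature B cell and pseudogene ratio covariates, and del/del libraries for the sexes).

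The members and lists were chosen with earlier results of these data known. Named members were those called, up to 6 each way of smallest p per comparison, the 5 highest and 5 lowest per length, paralogues and the disease or development list. Single genes were followed through the alternatives only where their p was under 0.1, a limit set after the p-values were seen. The sequence overlap was added later, and Rpl24 was named after its values were seen. Planned protein features were not analysed here. A few genes are not reported here, and 2 members are left out of the plots by gene, though not of any count or median.

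Within-group library pairs (32) were compared: 0 were identical, and chi-square per degree of freedom was at least 6.27.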

Additional observations from a re-analysis of the deposited data

Results flagged for a closer look

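Single libraries far from the rest of their group were looked for in 46 named members and 3 library measures in each of the 4 groups, and 9 were found, 4.59% of the looks; chance alone gives about 1 in 20. In female heterozygous library 4, where most members were high, Rpl30 was at 165 CPM (next 140), Rpl21 at 98.8 CPM (next 70.8) and Rpl5 at 53.4 CPM (next 46.9). In male del/del library 4, Rps20 was at 489 CPM (next 406) and the members' share of counts was 1.62% (next 1.44%). In male heterozygous library 1, Rpl23a was at 12.7 CPM (next 2.71), while the mean log2 CPM of the members was 5.65 (next 5.83). Exons of other annotated genes, summed gene by gene, lie over 62.3% of the merged exons of Rpl23a. Rpl3l was at 9.14 CPM in female heterozygous library 5 (next 6.76), and Rps27 at 0.982 CPM in female del/del library 1 (next 2.17).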

How the results depend on the processing

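No member was called in the male comparison or the interaction under any of 19 and 26 alternatives. In females and over both sexes, leaving out libraries gave 0 to 1 members, the 1 being Rps4y2 without female del/del library 4 (adjusted p 0.0461 and 0.0447; over all alternatives 0.0461 to 1 and 0.0447 to 1). The members' median with libraries left out was -0.08 to 0.07 (female), 0.09 to 0.20 (male), 0.03 to 0.10 (both), -0.22 to -0.07 (interaction) and -0.19 to -0.04 (sexes). The female median was 0.16 with the erythroid covariate and 0.12 with Malat1. The male median was 0.26 with the plasmacytoid dendritic cell covariate and 0.135 with the proliferation covariate. The 33 members that differed between the sexes became 25 to 33 with libraries left out, 15 with the proliferation covariate, 11 with the mature B cell covariate and 0 with the pseudogene ratio, where the median was 0.43 and Rpl29 (0.37), Rpl18 (0.67) and Rps14 (0.34) reversed, none of them called. In del/del libraries the median was -0.25. Counts over all genes ranged from 17 to 92 around 34 (female), 5 to 49 around 16 (male), 50 to 129 around 72 (both), 0 to 4 around 0 (interaction) and 16 to 4665 around 3185 (sexes). Adding pseudogene rows raised the mean share in every group. In females it went to 1.382% from 1.305% (heterozygous) and to 1.348% from 1.272% (del/del). In males it went to 1.504% from 1.361% (heterozygous) and to 1.62% from 1.47% (del/del). A pyrimidine run within 10 bases was in 64.8% of members, against 34.4% of all genes, and the median level per principal transcript length was 77.3. The labels give no shared replicate numbers and so no pairing. A block of animals of nearest number, whose deviations correlated above 0.1 in 6 of 9 pairs, called 0 members. Low counts limit Rps13, Rps27, Rpl23a and Rps4y2.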
